A study of Mus musculus with 22 samples.

Results

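The genes described here encode the machinery that releases synaptic vesicles, a list of 46 genes chosen by name and grouped by role: synapsins and vesicle membrane proteins, calcium sensors, SNARE proteins, complexins, active zone and priming proteins, Rab3 with an effector, and endocytic proteins. Of these, 45 were matched to the count table among 23033 genes, and Syt5 was not analysed here. A filter of 5 cpm (counts scaled to the library total) in at least 2 of the 22 libraries kept 42 of the 46 among 11133 genes. The filter left out Sv2c, Rims1 and Rab3a.

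The libraries come from the hippocampus, cortex and cerebellum of 8 mice on a C57BL/6 background, 4 wild type (WT) and 4 circTulp4-deficient (CD), with 3 WT and 4 CD hippocampi, 4 WT and 4 CD cortices, and 4 WT and 3 CD cerebella. CD mice carry a CRISPR-Cas9 mutation, from AG to TC, of the splice acceptor used to form circTulp4, a circular RNA made from exonic sequence of Tulp4, and the WT mice lack it. The mutation is constitutive and not restricted to a cell type. The age and sex of these mice are not given in the sources used here. Messenger RNA was counted at its 3′ end (CelSeq2), which does not measure the circle itself. The questions asked of the list were how its genes differ between the 3 regions, and whether they differ between CD and WT mice.

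A synaptic vesicle is filled with transmitter, docks at the active zone and is primed there by Munc13 and RIM proteins. It fuses when calcium binds synaptotagmin and the SNARE proteins on vesicle and plasma membrane zip together. Complexins clamp and assist this last step, and the membrane is afterwards recovered by endocytosis. Many of these proteins exist as paralogs that neurons of different kinds use in different proportions. The granule cells of the cerebellum outnumber its other neurons, whereas the cortex and hippocampus are dominated by pyramidal cells and, in the dentate gyrus, by another kind of granule cell.

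Library totals, with 1 transcript per gene, ran from 2757684 to 8847478 counts, so that 5 cpm corresponded to 13.8 to 44.2 counts. Tulp4, the edited gene, was low, with 20 to 137 counts a library, and its log2 fold change (CD minus WT) was -0.54 in the hippocampus, -1.01 in the cortex (SE, 0.25; FDR = 0.9997) and -0.48 in the cerebellum. By other measures, RT-qPCR and Western blot of brain, the paper reports no difference between genotypes in linear Tulp4 or in its protein. In the cortex, WT libraries had 7.97 to 16.4 cpm and CD libraries 4.91 to 7.35 cpm, without overlap. The few counts here are not read as a change in Tulp4 mRNA, nor as its absence. The 4 CD hippocampi differed in a Tulp4 measure that rests on few counts. The excess of counts on the Tulp4 transcript whose first exon lies in circTulp4 over a transcript without that exon was 3.98 cpm in the library labelled CD hippocampus of mouse m118, against 0.424 to 0.573 cpm in the other CD hippocampi and 2.71 to 3.69 cpm in the WT hippocampi. The hippocampal library of mouse m118 had 26 Tulp4 counts. In the cortex and cerebellum of this mouse the excess was 0.90 and 1.55 cpm. CD libraries there had 0.14 to 1.30 and 0.60 to 2.62 cpm, and WT libraries 1.45 to 6.03 and 3.12 to 13.7 cpm. Whether the hippocampal label is wrong was not tested. Some results are therefore also given without that hippocampal library. These are the counts of genes called between regions and the hippocampal genotype changes at an unadjusted p below 0.05. Levels, overlaps, intervals and the tests over all regions include that library. The 5 hippocampal marker genes summed to 889 to 1467 cpm in the hippocampus, 151 to 234 cpm in the cortex and 373 to 484 cpm in the cerebellum. Of the cerebellar markers, Gabra6 of cerebellar granule cells was at 192 to 222 cpm in the cerebellum and at most 2.70 cpm elsewhere, and Pcp2 of Purkinje cells reached 2029 to 2437 cpm in the cerebellum and at most 26.3 cpm elsewhere.

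Levels are TMM-scaled cpm, counted once per RNA end and not scaled by length. A gene was called higher or lower between regions when edgeR's quasi-likelihood test gave an FDR (Benjamini-Hochberg over all 11133 genes) below 0.01 and the change was over 2-fold, averaged over genotypes. The 3 comparisons share libraries, so their values are given side by side.

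Between regions, 23 of the 42 tested genes passed in at least 1 comparison, and 19 in none (share of all genes not counted). From hippocampus to cortex, 5 were higher (4.38% of all genes were) and 2 lower (4.03% of all genes), with a median log2 fold change of 0.30 over the 42 and of -0.01 over all genes. From hippocampus to cerebellum, 8 were higher (9.77% of all genes) and 12 lower (13% of all genes), with medians of -0.41 and 0.02. From cortex to cerebellum, 5 were higher (9.7% of all genes) and 10 lower (12.9% of all genes), with medians of -0.59 and 0.02. Cplx3 is counted among the 5 higher in the cortex than in the hippocampus and among these 10. It passed the filter through the cortex alone, so its calls are tied to that filter. The median size of the change, without its sign, was 0.45, 0.88 and 0.75 over the 42 genes in these 3 comparisons, and 0.23, 0.43 and 0.43 over all genes. Without the library labelled CD hippocampus of mouse m118 these counts were 5 and 2, 7 and 12, and 5 and 10. By median level, 22 of the 42 were highest in the cortex, 12 in the hippocampus and 8 in the cerebellum. In the cerebellum, 26 were lowest. The order was not counted over all genes, so these counts have no share to be compared with. Still, the genes together took a like share of the counts in each region, 2.96% to 3.20% in the hippocampus, 2.96% to 3.56% in the cortex and 2.75% to 3.35% in the cerebellum. Much of this sum is Vamp2. Without Vamp2 the shares were 1.96% to 2.18%, 2.13% to 2.40% and 2.05% to 2.38%, with the lowest median in the hippocampus. In bulk tissue, fewer cells of a type and less RNA per cell cannot be told apart.

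**Figure D1:**
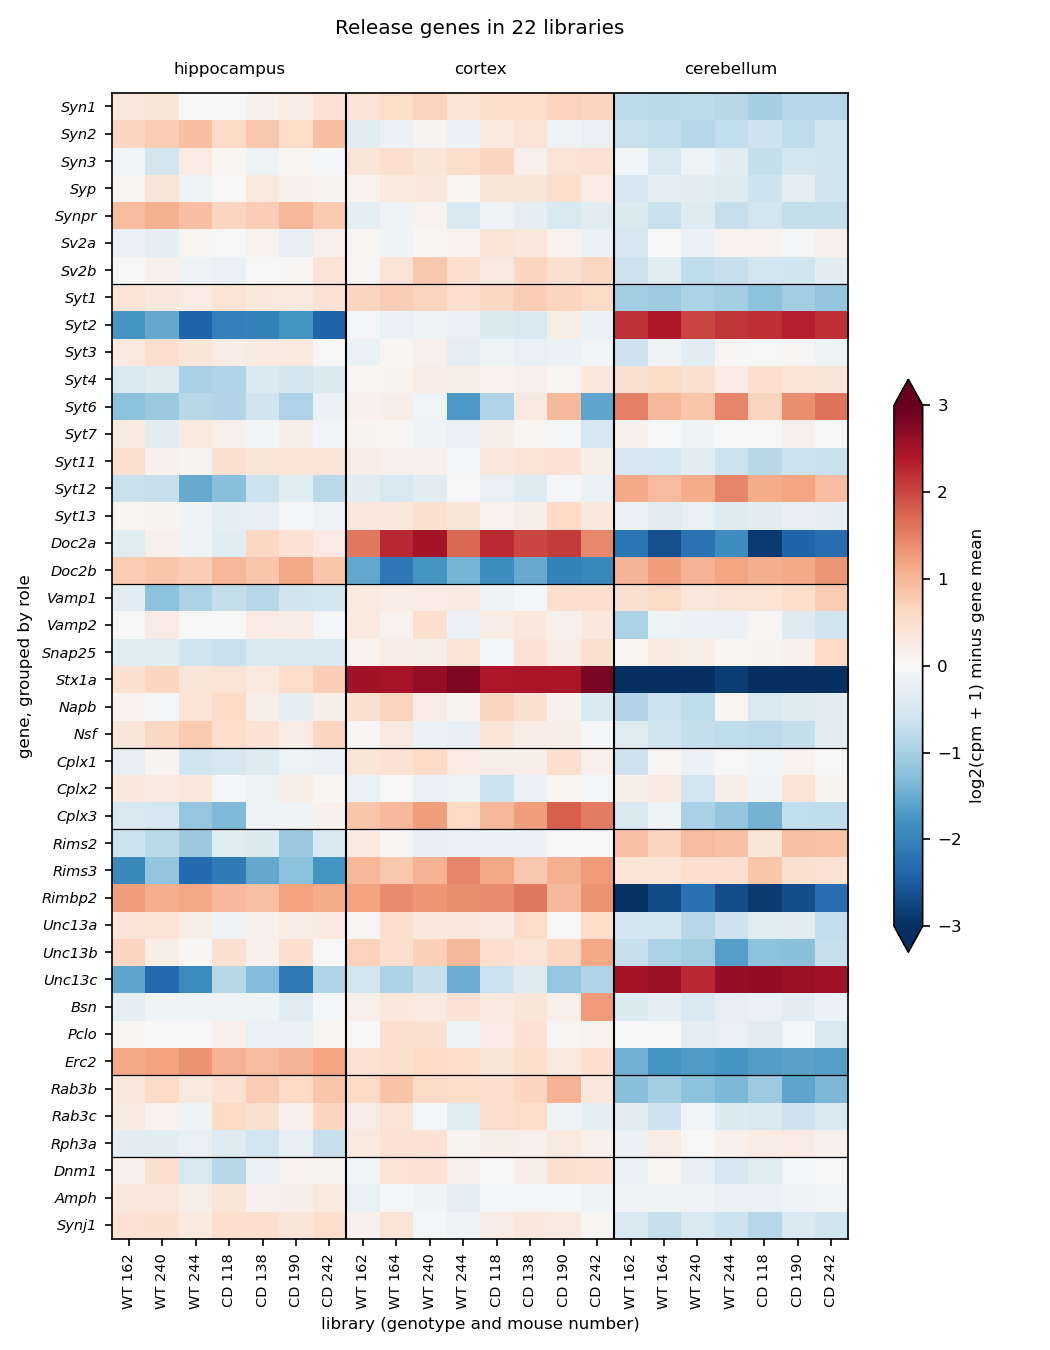
Each row is a gene, grouped by role with black lines, and each column a library, by region and then genotype and mouse number. Colour gives log2(cpm + 1) minus the gene's mean, with values beyond 3 drawn at the end colours. Syt2 and Unc13c stand out as red in the cerebellum, Stx1a and Rimbp2 as blue there, and Stx1a as red in the cortex.

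The start regions of 5 of these genes are printed: Syt1 and Syt2 as paralogs with opposite orders of the regions, Unc13c and Stx1a as the genes with the highest and lowest change from hippocampus to cerebellum, and Syn1 because its window held a motif found in few windows. Each is the 250 bases before the RefSeq start in GRCm38.p6, read 5′ to 3′ on the gene's strand. For Syt1 and Syt2, which have 2 starts each in the table, the start furthest upstream was taken. The only Unc13c start in the table lies inside the span that GENCODE gives the gene, so its window is at an internal start and not at the 5′ end of that span. Capitals mark matches, on either strand, to CCAAT, the GC box GGGCGG, the E box CAGCTG, the TATA box TATAAA and the cyclic AMP response element TGACGTCA.

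Syt1 (chr10:109010976-109011225, minus strand): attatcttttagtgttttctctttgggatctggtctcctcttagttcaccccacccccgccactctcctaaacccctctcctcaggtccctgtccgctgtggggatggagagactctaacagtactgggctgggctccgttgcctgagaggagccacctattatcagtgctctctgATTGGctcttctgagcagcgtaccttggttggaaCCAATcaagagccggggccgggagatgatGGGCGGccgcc
Syt2 (chr1:134646362-134646611, plus strand): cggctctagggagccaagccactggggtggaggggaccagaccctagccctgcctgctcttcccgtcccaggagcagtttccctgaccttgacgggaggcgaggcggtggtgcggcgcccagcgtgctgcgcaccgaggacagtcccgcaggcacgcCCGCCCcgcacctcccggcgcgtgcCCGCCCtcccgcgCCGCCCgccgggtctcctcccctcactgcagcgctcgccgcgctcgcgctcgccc
Unc13c (chr9:73969038-73969287, minus strand): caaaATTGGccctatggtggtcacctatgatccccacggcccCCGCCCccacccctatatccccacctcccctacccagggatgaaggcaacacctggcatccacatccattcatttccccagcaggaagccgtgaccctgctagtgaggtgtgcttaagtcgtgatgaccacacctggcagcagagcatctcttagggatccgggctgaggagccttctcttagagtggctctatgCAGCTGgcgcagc
Stx1a (chr5:135023232-135023481, plus strand): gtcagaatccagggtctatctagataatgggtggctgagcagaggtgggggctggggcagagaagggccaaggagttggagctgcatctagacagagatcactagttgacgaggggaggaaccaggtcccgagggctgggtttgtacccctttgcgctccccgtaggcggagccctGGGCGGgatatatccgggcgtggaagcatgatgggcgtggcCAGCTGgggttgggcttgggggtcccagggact
Syn1 (chrX:20920919-20921168, minus strand): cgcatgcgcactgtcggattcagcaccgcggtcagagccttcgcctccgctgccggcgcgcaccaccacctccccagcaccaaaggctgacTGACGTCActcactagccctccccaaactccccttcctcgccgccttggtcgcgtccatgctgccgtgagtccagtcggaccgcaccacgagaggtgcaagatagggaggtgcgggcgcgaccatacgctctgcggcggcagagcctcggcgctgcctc

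The Syt2 window had 3 GC boxes, no CCAAT and 76.0% G or C, and the Syt1 window had 1 GC box, 2 CCAAT matches and 56.4% G or C. Among the 35 genes with an entry (48 windows), a GC box was in 54.2% of windows, against 32.7% of all 32851 windows, and CAGCTG in 31.2%, against 13.0%. CCAAT was in 27.1% against 33.8%, and TATAAA in 6.25% against 12.4%. The cyclic AMP response element was in 1.55% of all windows and, of these genes, in Syn1 alone. These are counts of letters, several windows belong to 1 gene, and no binding was measured.

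The synapsins tether vesicles in reserve. Syn2 had 941 cpm in its lowest, 1099.8 cpm in its median and 1216 cpm in its highest hippocampal library, 518, 587 and 849 cpm in the cortex, and 357, 389 and 424 cpm in the cerebellum. No library of one region overlapped with those of another. Syn2 was lower in the cerebellum than in the hippocampus by a log2 fold change of -1.45 (SE, 0.09; FDR = 9.19e-13), while the cortex differed from the hippocampus by -0.76 and the cerebellum from the cortex by -0.69, both within 2-fold. Syn1 had 749, 869.7 and 1002 cpm in the hippocampus, 979.9, 1085 and 1213 cpm in the cortex, and 375, 417 and 435 cpm in the cerebellum. Its cerebellar libraries lay below all others, by -1.08 (SE, 0.08; FDR = 4.49e-12) against the hippocampus and by -1.41 (SE, 0.07; FDR = 1.39e-14) against the cortex, and hippocampus and cortex overlapped. Syn3, at 9.02 to 24.5 cpm over all libraries, passed in no comparison.

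As a share of the 3 synapsins' counts, Syn2 was 51.5% to 60.8% in the hippocampus, 32.2% to 43.6% in the cortex and 44.6% to 52.3% in the cerebellum. The share of Syn1 in the cortex was 55.5% to 66.5%. Shares were compared across regions only, not between genes.

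Synpr, which encodes synaptoporin, a relative of synaptophysin, was highest in the hippocampus. It had 128, 154 and 171 cpm (lowest, median and highest) in the hippocampus, 58.6, 66.6 and 87.2 cpm in the cortex, and 48.9, 50.7 and 61.8 cpm in the cerebellum. Every hippocampal library was above every other, with changes of -1.12 in the cortex (SE, 0.08; FDR = 8.89e-11) and -1.50 in the cerebellum (SE, 0.09; FDR = 1.85e-13). Syp (synaptophysin) had 240.4 to 345 cpm in the hippocampus, 276 to 387 cpm in the cortex and 169.8 to 218 cpm in the cerebellum, and it passed in no comparison. Synpr was 29.4% to 39.0% of the pair's counts in the hippocampus, 13.2% to 20.7% in the cortex and 18.3% to 24.7% in the cerebellum.

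Sv2a, the SV2 protein found on most vesicles, was nearly level, with medians of 1581, 1680.1 and 1593 cpm in hippocampus, cortex and cerebellum. Sv2b had 109 to 167, 130.4 to 221 and 74.2 to 101 cpm, and was lower in the cerebellum than in the cortex by -1.03 (SE, 0.11; FDR = 8.33e-09), a value close to the 2-fold limit. Without the WT cortex of mouse m240 the change was -0.96, within 2-fold. Sv2c had at most 10 counts in a library and was not tested.

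Of the 11 calcium sensors tested, 4 were higher and 2 lower in the cerebellum than in the hippocampus (9.77% and 13% of all genes), and 4 and 2 than in the cortex (9.7% and 12.9% of all genes). Syt1, the fast sensor of forebrain synapses (chromosome 10, 108497650 to 109010980, GRCm38), had 1205, 1267 and 1368 cpm in the hippocampus, 1439.7, 1592 and 1732 cpm in the cortex, and 433, 491 and 522 cpm in the cerebellum. The cerebellum lay below both, by -1.44 (SE, 0.06; FDR = 3.66e-16) against the hippocampus and -1.74 (SE, 0.06; FDR = 5.70e-18) against the cortex. Syt2, a fast sensor used by hindbrain synapses and by parvalbumin interneurons (chromosome 1, 134646534 to 134753149), had 54.3, 70.5 and 100.3 cpm in the hippocampus, 212, 259 and 329.6 cpm in the cortex, and 1168, 1336 and 1559 cpm in the cerebellum. The 3 regions did not overlap for Syt2, with changes of 1.80 (SE, 0.12; FDR = 1.02e-11) from hippocampus to cortex, 4.18 (SE, 0.14; FDR = 9.86e-19) from hippocampus to cerebellum and 2.39 (SE, 0.12; FDR = 2.80e-15) from cortex to cerebellum.

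Of the counts of both genes, Syt2 made up 3.82% to 7.36% in the hippocampus, 10.9% to 17.2% in the cortex and 69.1% to 76.7% in the cerebellum, so that the ratio of Syt2 to Syt1 had medians of 0.0557, 0.168 and 3.03. Pvalb, which marks parvalbumin interneurons and, in the cerebellum, Purkinje cells and molecular layer interneurons, moved in the same order as Syt2, with medians of 76.1, 160.0 and 1487 cpm. Pvalb is on a list of 6 inhibitory neuron genes, of which 2 were higher and 2 lower in the cerebellum than in the hippocampus (9.77% and 13% of all genes). The sum of the 6 took the opposite order, with medians of 5547, 5192 and 2118 cpm in hippocampus, cortex and cerebellum. The part of Pvalb or of these neurons in the Syt2 difference was not tested.

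**Figure D2:**
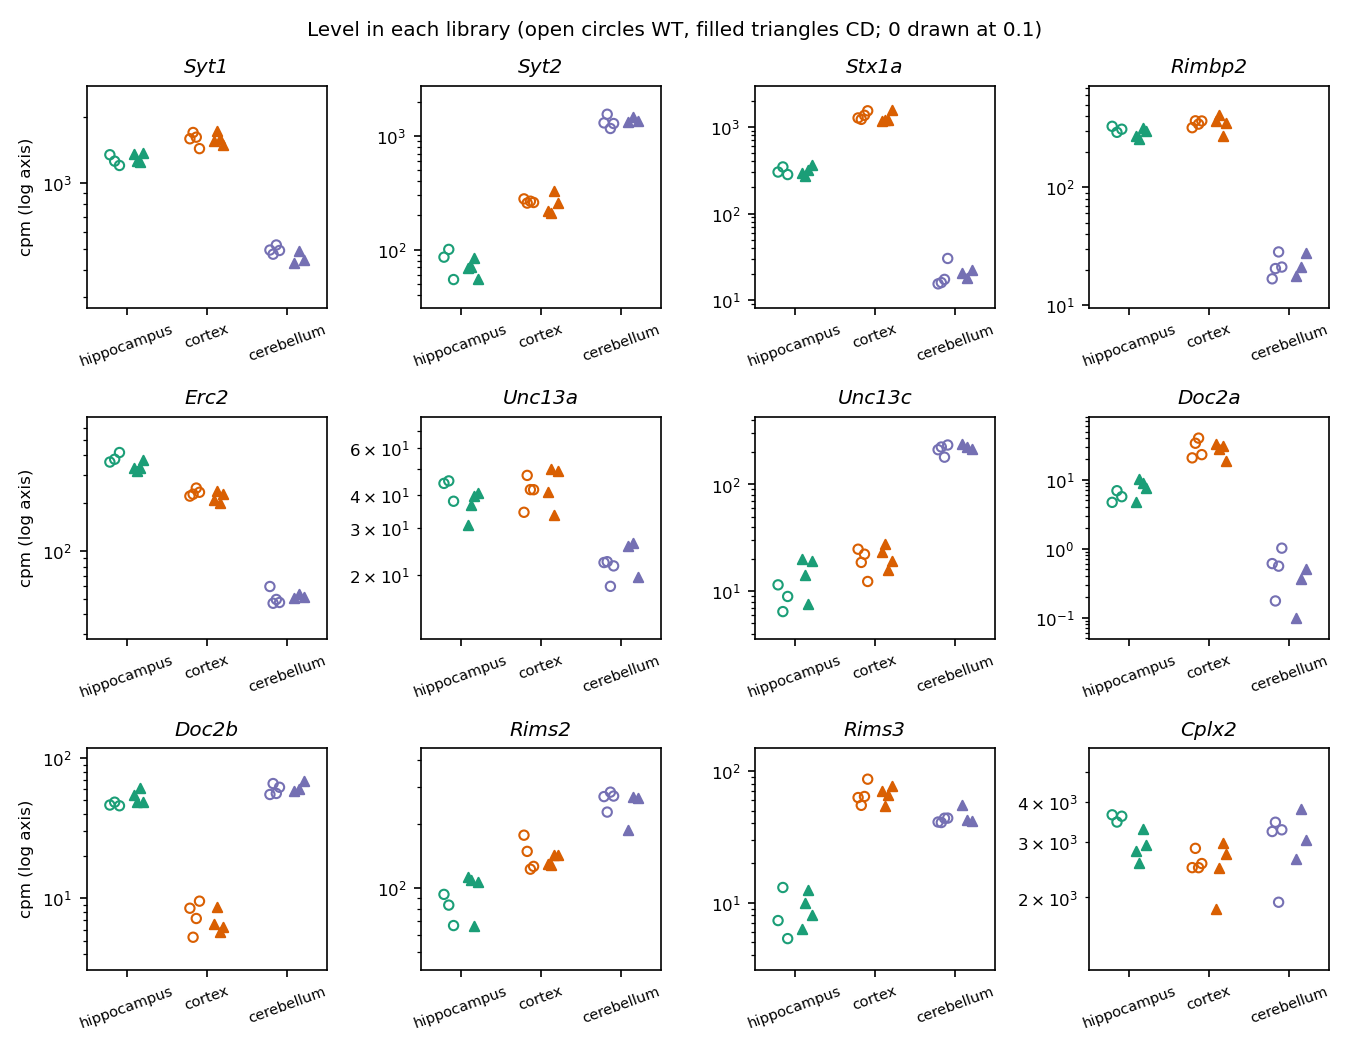
Each panel shows 1 gene, with cpm on a log axis and the regions along the bottom; open circles are WT and filled triangles CD libraries, and a value of 0 is drawn at 0.1. Syt1 is lowest and Syt2 highest in the cerebellum, Unc13c is at 180.1 cpm or more in every cerebellum and at most 27.9 cpm elsewhere, and WT and CD points intermix within regions, apart from Cplx2 in the hippocampus, where every CD point lies below every WT point.

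Doc2 proteins are soluble calcium sensors with a high affinity, and their 2 members took opposite courses in cortex and cerebellum. Doc2a (chromosome 7, 126846983 to 126852705) had 4.70, 6.93 and 10.2 cpm in the hippocampus, 18.8, 29.2 and 40.1 cpm in the cortex, and 0, 0.4995 and 1.02 cpm in the cerebellum. In counts, this was 19 to 88, 58 to 187 and 0 to 6 per library, and no region overlapped with another. The cortex was above the hippocampus by 2.05 (SE, 0.19; FDR = 3.62e-09) and the cerebellum below the cortex by -5.95 (SE, 0.29; FDR = 2.86e-15), a fitted value that rests on few cerebellar counts. Doc2b (chromosome 11, 75768270 to 75796060) had 45.7, 48.5 and 61.5 cpm in the hippocampus, 5.29, 6.90 and 9.56 cpm in the cortex, and 55.0, 60.3 and 69.2 cpm in the cerebellum. Every cortical library lay below every other one, by -2.79 against the hippocampus (SE, 0.11; FDR = 5.69e-16), and the cerebellum was above the cortex by 3.09 (SE, 0.11; FDR = 3.09e-18). Doc2a was 8.05% to 17.5% of the pair's counts in the hippocampus, 70.7% to 86.5% in the cortex and 0% to 1.62% in the cerebellum, on 82 to 558 counts of the pair per library.

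Syt6 and Syt12, synaptotagmins that are not established as release sensors, were higher in the cerebellum than in both other regions. Syt6 had 10.96, 14.4 and 23.9 cpm in the hippocampus, 7.57, 27.7 and 54.5 cpm in the cortex and 43.7, 73.6 and 86.3 cpm in the cerebellum. Its cortical libraries overlapped with both other regions, whereas hippocampus and cerebellum did not overlap. The change was 2.16 (SE, 0.30; FDR = 9.14e-07) from hippocampus to cerebellum and 1.37 (SE, 0.28; FDR = 1.32e-04) from cortex to cerebellum. Syt12 had 3.44, 6.81 and 8.86 cpm, then 8.05, 9.48 and 11.6 cpm, then 23.0, 26.5 and 34.1 cpm, with a change of 2.08 (SE, 0.15; FDR = 7.42e-12) from hippocampus to cerebellum and of 1.47 (SE, 0.14; FDR = 1.38e-09) from cortex to cerebellum.

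Syt4, which is induced by activity, had 117.8 to 176 cpm in the hippocampus, 238 to 288 cpm in the cortex and 273 to 345 cpm in the cerebellum. It stood at the limit in the cerebellum (1.003; SE, 0.09; FDR = 5.72e-10) and no longer passed 2-fold without the WT hippocampus of mouse m244 (0.92) or, each on its own, the CD hippocampus of mouse m118, the WT cerebellum of mouse m164 or m240, or the CD cerebellum of mouse m118. Syt7, a slow sensor with medians of 2809, 2522 and 2545 cpm, was level, with changes of -0.13, -0.05 and 0.09. Syt3 (-0.40, -0.43 and -0.03), Syt11 (-0.10, -0.94 and -0.84) and Syt13 (0.43, -0.20 and -0.63) passed in no comparison either, and all 3 values are in the order cortex minus hippocampus, cerebellum minus hippocampus and cerebellum minus cortex.

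**Figure D3:**
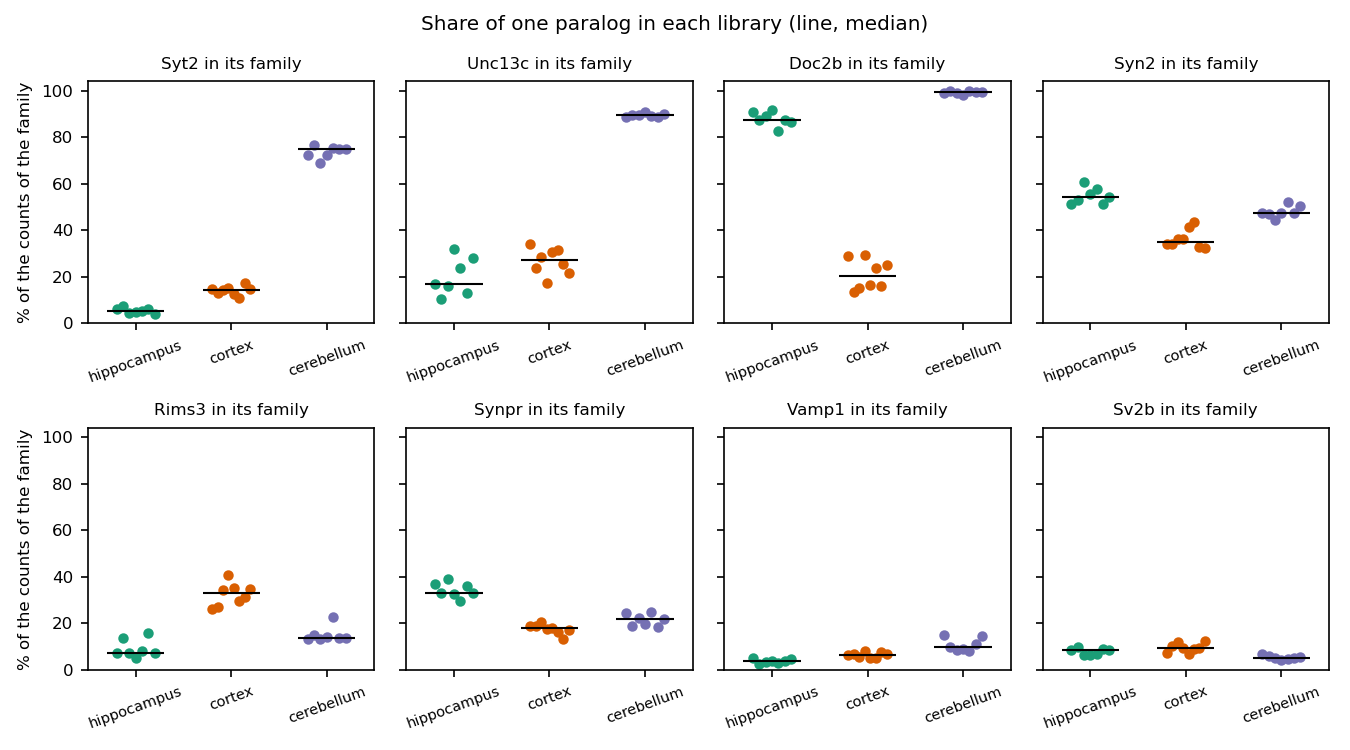
Each point is a library and gives the share of one paralog among the counts of its family, in percent, with the median as a line: Syt2 of Syt1 and Syt2, Unc13c of Unc13a to Unc13c, Doc2b of both Doc2 genes, Syn2 of Syn1 to Syn3, Rims3 of Rims1 to Rims3, Synpr of Syp and Synpr, Vamp1 of Vamp1 and Vamp2, and Sv2b of Sv2a to Sv2c. Syt2 goes from a median of 5.28% in the hippocampus to 75.2% in the cerebellum, Unc13c from 16.7% to 89.4%, and Doc2b has its lowest share, 20.1%, in the cortex.

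The SNARE proteins form the fusion complex, and among them Stx1a, the syntaxin of the plasma membrane, had the largest change between regions of the 42 genes. Stx1a (chromosome 5, 135023482 to 135051100) had 272, 302 and 366 cpm in the hippocampus, 1190.3, 1252 and 1579 cpm in the cortex, and 15.4, 17.9 and 30.2 cpm in the cerebellum, the latter on 91 to 179 counts a library. The regions did not overlap, with the cortex above the hippocampus by 2.09 (SE, 0.12; FDR = 2.76e-13), the cerebellum below the hippocampus by -3.96 (SE, 0.14; FDR = 2.75e-18) and below the cortex by -6.05 (SE, 0.15; FDR = 4.04e-21).

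Vamp2 (synaptobrevin 2), with medians of 10305, 12211 and 9063 cpm, and Snap25, with medians of 1137, 1835 and 1718 cpm, passed in no comparison. Vamp1, the synaptobrevin of hindbrain and fast-firing neurons, had 289.8, 417 and 551 cpm in the hippocampus, 624.6, 813 and 958 cpm in the cortex, and 862, 933 and 1161 cpm in the cerebellum. It was higher in the cerebellum than in the hippocampus by 1.23 (SE, 0.12; FDR = 2.27e-09), and the cortex differed from the hippocampus by 0.97, just within 2-fold. Its share of synaptobrevin counts was 2.34% to 5.07% in the hippocampus, 4.88% to 8.24% in the cortex and 7.95% to 15.02% in the cerebellum.

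Nsf, the ATPase that takes spent SNARE complexes apart, was lower in the cerebellum than in the hippocampus by -1.13 (SE, 0.10; FDR = 6.94e-10), at 206 to 279 cpm against 411 to 608 cpm, with no overlap. Napb, the neuronal adaptor of Nsf, had 255 to 465 cpm, 226 to 493.4 cpm and 169 to 323 cpm in hippocampus, cortex and cerebellum and passed in no comparison.

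Of the complexins, Cplx1 and Cplx2 passed in no comparison, with Cplx1 at medians of 1081, 1576 and 1279.6 cpm and Cplx2 at 3283, 2523 and 3233 cpm. Cplx3, a complexin best known from retinal ribbon synapses, was the low one, with 0.506, 1.74 and 3.13 cpm in the hippocampus, 4.78, 7.33 and 12.1 cpm in the cortex, and 0.410, 1.25 and 2.45 cpm in the cerebellum. It passed the filter through the cortex alone, so its higher cortical level (2.09; SE, 0.28; FDR = 1.64e-06) and lower cerebellar level (-2.62; SE, 0.30; FDR = 4.45e-08) are tied to that filter. All 8 cortical libraries, with 12 to 81 counts, were above all others.

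**Figure D4:**
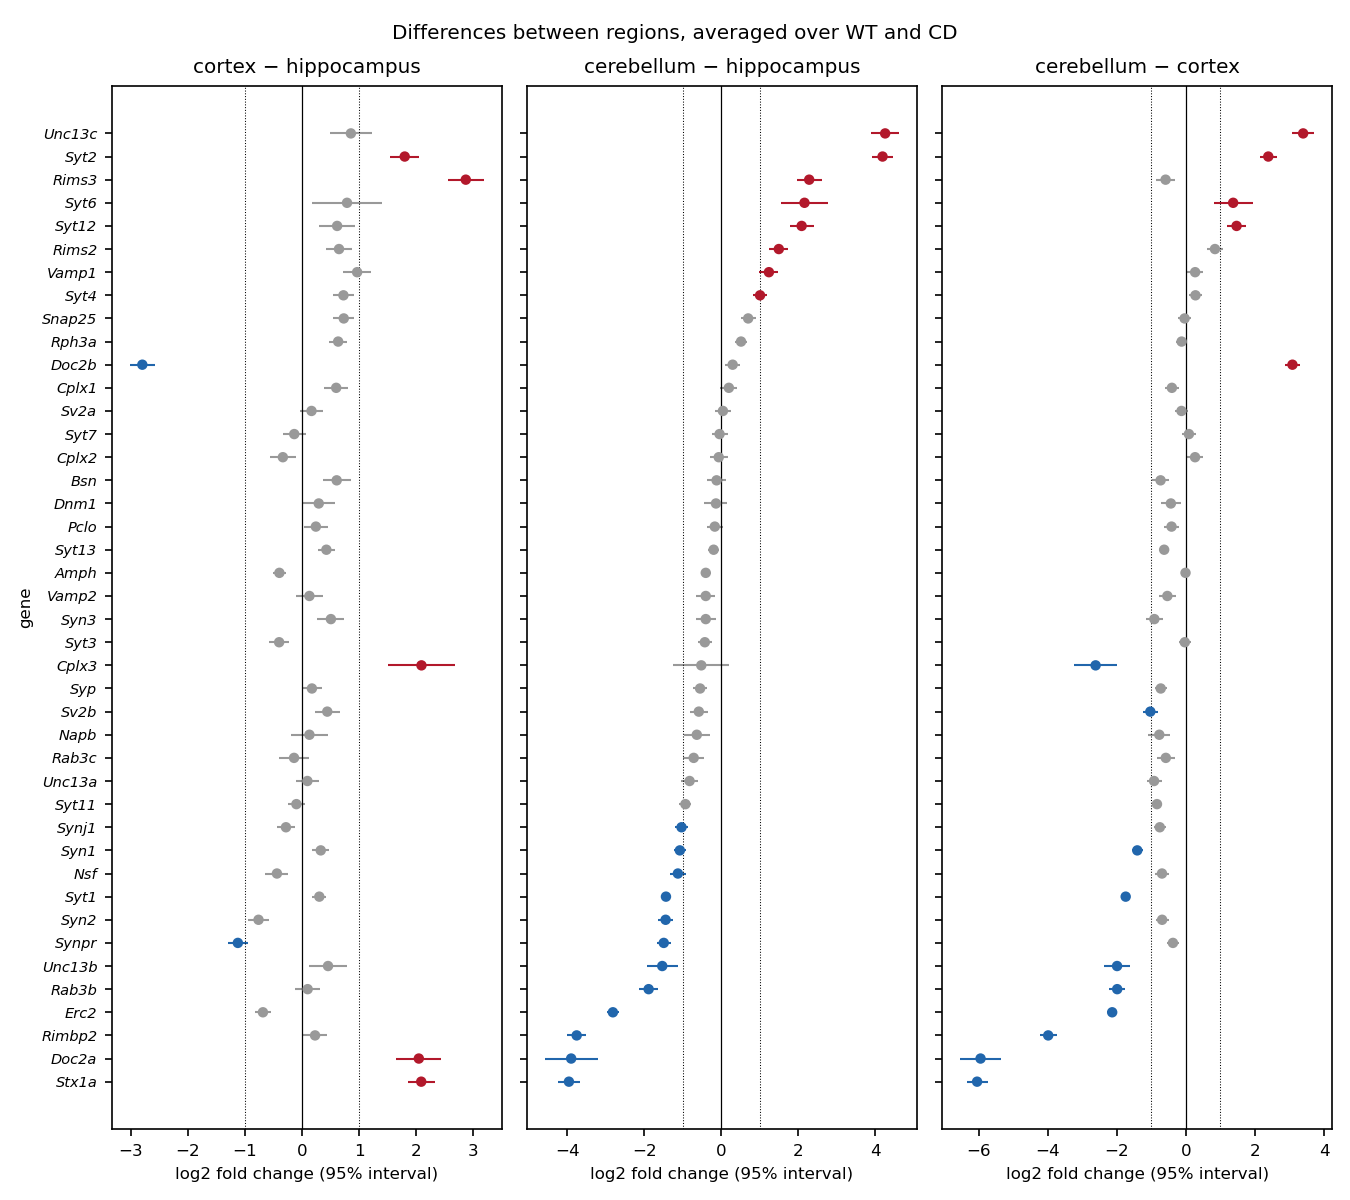
Each row is a gene, sorted by its cerebellum minus hippocampus change, and the panels give the log2 fold change of the 3 comparisons with its 95% interval; red marks genes called higher, blue lower, grey neither, and dotted lines stand at a 2-fold change. Unc13c and Syt2 lie at the top, with changes of 4.25 and 4.18, and Stx1a and Doc2a at the bottom, with -3.96 and -3.90.

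Of the 9 active zone and priming genes tested, 3 were higher and 3 lower in the cerebellum than in the hippocampus (9.77% and 13% of all genes). Unc13c, which encodes Munc13-3 (chromosome 9, 73479422 to 74008155), had 6.45, 11.5 and 20.004 cpm in the hippocampus, 12.4, 20.6 and 27.9 cpm in the cortex, and 180.1, 224 and 238 cpm in the cerebellum. Every cerebellar library was above every other, by 4.25 (SE, 0.18; FDR = 1.24e-16) against the hippocampus and 3.40 (SE, 0.16; FDR = 9.82e-16) against the cortex, while hippocampus and cortex overlapped. Unc13b (Munc13-2) had 8.10 to 13.1, 10.9 to 19.0 and 1.87 to 4.62 cpm and was lower in the cerebellum, by -1.54 (SE, 0.19; FDR = 1.84e-07) and -1.99 (SE, 0.19; FDR = 1.17e-09). Unc13a (Munc13-1), the main priming protein of forebrain glutamate synapses, had 30.9 to 45.2, 33.7 to 49.9 and 18.0 to 26.4 cpm, and its changes of -0.83 and -0.92 in the cerebellum were within 2-fold.

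Unc13c was therefore 88.6% to 90.9% of Munc13 counts in the cerebellum, 10.6% to 32.1% in the hippocampus and 17.3% to 34.0% in the cortex, and Unc13a was 8.23% to 10.3%, 49.6% to 74.0% and 47.2% to 60.9%. Granule cell markers moved with this: all 5 genes of that list were higher in the cerebellum, where their sum was 2219 to 3230.2 cpm against 35.7 to 67.8 cpm elsewhere, with none at 3 counts or fewer in all libraries of any region. Their part in the Unc13c difference was not tested.

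Rimbp2, a RIM-binding protein that couples vesicles to calcium channels (chromosome 5, 128757788 to 128953644), had 255, 298 and 329 cpm in the hippocampus, 272, 358 and 410.1 cpm in the cortex, and 16.7, 21.0 and 28.3 cpm in the cerebellum. The cerebellum lay far below, by -3.76 (SE, 0.12; FDR = 6.71e-19) and -3.99 (SE, 0.12; FDR = 1.62e-19), and hippocampus and cortex overlapped. Erc2 (CAST, ELKS2), a scaffold of the active zone (chromosome 14, 27622275 to 28478537), had 318, 364 and 418 cpm in the hippocampus, 199.9, 229 and 249 cpm in the cortex, and 47.0, 50.4 and 59.9 cpm in the cerebellum. Its order was the same as that of Syn2, without overlap, with changes of -2.82 (SE, 0.08; FDR = 2.82e-20) and -2.14 (SE, 0.07; FDR = 2.22e-18) in the cerebellum and of -0.68 from hippocampus to cortex.

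The RIM genes differed from both. Rims2 had 66.5, 93.3 and 112 cpm in the hippocampus, 123, 136 and 177 cpm in the cortex, and 188, 267 and 282 cpm in the cerebellum, without overlap, and its change from hippocampus to cerebellum was 1.49 (SE, 0.12; FDR = 4.70e-11). Rims3, a short form that lacks the zinc finger of the larger RIM proteins, had 5.33, 8.10 and 13.0 cpm in the hippocampus, 54.1, 64.9 and 86.5 cpm in the cortex, and 40.5, 42.6 and 55.2 cpm in the cerebellum. The hippocampus lay far below both, by 2.87 against the cortex (SE, 0.16; FDR = 1.78e-13) and by 2.28 against the cerebellum (SE, 0.16; FDR = 3.53e-12). Rims1 had 0 to 12 counts a library and was not tested, and counts this low at its annotated ends give no level of the gene. The large scaffolds Bsn (changes of 0.61, -0.13 and -0.73) and Pclo (0.24, -0.17 and -0.42) passed in no comparison. The Pclo values are those of the near one of its annotated 3′ ends. Its far end, described at the close, had medians of 60.6, 54.2 and 130 cpm in hippocampus, cortex and cerebellum. That end was not tested on its own, so the values above do not describe Pclo as a whole.

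Rab3b, one of the small GTPases that bring vesicles to the active zone, had 42.5 to 62.7 cpm in the hippocampus, 42.9 to 72.2 cpm in the cortex and 10.9 to 16.4 cpm in the cerebellum, a change of -1.89 (SE, 0.12; FDR = 4.88e-13) against the hippocampus and -1.99 (SE, 0.12; FDR = 1.12e-13) against the cortex. Rab3c, with changes of -0.14, -0.72 and -0.58, and Rph3a (rabphilin, a Rab3 effector), with 0.63, 0.51 and -0.12, passed in none. Rab3a, which is known as an abundant Rab3 of the brain, had 1 to 15 counts a library and was not tested, and these counts give no level of the gene.

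Of the endocytic genes, Synj1, the lipid phosphatase that uncoats vesicles, had 187 to 217 cpm in the hippocampus, 137 to 197 cpm in the cortex and 82.6 to 111 cpm in the cerebellum. Its change of -1.04 from hippocampus to cerebellum (SE, 0.08; FDR = 8.69e-11) was close to 2-fold and was -0.98 without the CD cerebellum of mouse m118. Dnm1 (dynamin 1; 0.29, -0.14 and -0.44) and Amph (amphiphysin; -0.40, -0.41 and -0.01) passed in no comparison.

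At the annotated 3′ ends of Syn1, Syp, Syt2, Syt6, Syt12, Doc2a, Unc13a, Rab3a, Rab3b and Synj1, GENCODE M21 has a gene on the opposite strand, and whether the counting used strand is not given in the sources used here, so reads of such pairs may not have been told apart.

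Other genes of the pathway were taken from a list of 44, of which 42 were tested. From hippocampus to cortex, 1 was higher and 0 lower (4.38% and 4.03% of all genes). From hippocampus to cerebellum 5 were higher and 8 lower (9.77% and 13% of all genes), and from cortex to cerebellum 5 and 9 (9.7% and 12.9% of all genes). Syt9, another fast calcium sensor, was higher in the cerebellum by 3.50 and 3.10, at 59.4 to 92.6 cpm against 4.38 to 13.7 cpm elsewhere. Cadps2, a priming factor of dense core vesicles, was higher by 1.73 and 1.61, and Ppfia4 (liprin-alpha 4) by 1.53 and 2.33. Syt16 (-4.11 and -4.77), Syt17 (-3.89 and -3.37) and Rab27b (-2.53 and -2.36) were lower. The glutamate transporters of vesicles Slc17a7 (-1.29 and -1.29) and Slc17a6 (-3.14 and -4.29) were lower as well, and the GABA transporter Slc32a1 (1.43 and 1.09) was higher.

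Markers of other cells also moved between regions. The sum of 5 oligodendrocyte genes was 2305 to 4167 cpm in the hippocampus, 769.9 to 1811 cpm in the cortex and 1017 to 1696 cpm in the cerebellum. The 5 microglial genes summed to 184 to 220.3, 158 to 214 and 49.4 to 72.3 cpm, and all 5 were lower in the cerebellum. The 6 pan-neuronal genes summed to 3579 to 4085, 3739.8 to 4824 and 3392 to 4702 cpm, overlapping in all regions. Choroid plexus genes reached 8211 cpm in a WT hippocampus, where the lowest library had 126 cpm. The part of these cells in the values above was not tested.

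The differences between regions were also fitted in each genotype on its own. Fitted on WT libraries alone, 9, 20 and 15 genes passed in the 3 comparisons. On CD libraries alone, which come from other mice, it was 7, 20 and 15. The shares of all genes called in these separate fits are not given here. Of the genes called with both genotypes together (7, 20 and 15), 7, 18 and 13 passed in each genotype alone, and all kept their sign. Syt2 changed by 4.06 (SE, 0.19) in WT and 4.32 (SE, 0.17) in CD mice from hippocampus to cerebellum. Stx1a changed by -6.11 (SE, 0.20) and -6.00 (SE, 0.17) from cortex to cerebellum. The median difference between the genotypes' values over the 42 genes was 0.13, 0.17 and 0.13, and the furthest apart were Unc13c from hippocampus to cortex (1.20 in WT, 0.52 in CD), Doc2a from hippocampus to cerebellum (-3.24 and -4.56) and Cplx3 from cortex to cerebellum (-2.09 and -3.15).

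Between CD and WT mice, 0 of 41, 42 and 40 tested genes passed the same thresholds in the hippocampus, cortex and cerebellum, as for all genes (0% in each region by edgeR's quasi-likelihood test). DESeq2's Wald test also called 0. At an unadjusted p below 0.05 there were 4 in the hippocampus (4.22% of all genes), 1 in the cortex (3.32%) and 1 in the cerebellum (4.55%), with an FDR of 0.981 or more for each. In limma voom, averaging the 3 regions and treating mice as random blocks, 0 of 42 passed and 1 had a p below 0.05, against 3.57% of all genes. The test of a genotype effect that differs between regions gave 0 of 42 (0% of all genes) at an FDR below 0.05, and Syt11 was the one with an unadjusted p below 0.05 (FDR = 0.999).

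The precision limits these statements. The 95% interval of the change stayed within 2-fold in both directions for 39 of 41 genes in the hippocampus, 40 of 42 in the cortex and 40 of 40 in the cerebellum, and within 1.5-fold for 32, 38 and 38. Changes of 2-fold were therefore outside the intervals of most of the genes. The largest values by region were Unc13c in the hippocampus, Cplx3 in the cortex and Syn3 in the cerebellum.

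Unc13c had 11.5, 6.45 and 8.94 cpm in the WT hippocampi and 20.004, 14.2, 7.68 and 19.0 cpm in the CD hippocampi, which overlapped. Its log2 fold change was 0.77 (95% interval, 0.08 to 1.45; FDR = 0.998) and 0.63 without the library of mouse m118. In cortex and cerebellum it was 0.10 and 0.09. Cplx2 had 3651, 3463 and 3613 cpm in WT and 2813, 2577, 3283 and 2927 cpm in CD hippocampi, which did not overlap, with a change of -0.30 (95% interval, -0.53 to -0.07; FDR = 0.998). Without the library of mouse m118 it was -0.28. In cortex and cerebellum Cplx2 changed by -0.05 and 0.09.

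Rab3c had 142, 127 and 109 cpm in WT and 178, 163, 131 and 185 cpm in CD hippocampi, which overlapped, a change of 0.38 (95% interval, 0.08 to 0.68) and of 0.35 without mouse m118. Syt6 had 10.96, 12.1 and 14.96 cpm in WT and 14.4, 17.7, 13.7 and 23.9 cpm in CD hippocampi, a change of 0.47 (95% interval, 0.01 to 0.94) and of 0.55 without mouse m118. For both, 1 or 2 CD libraries lay within the WT range. The count of 4 genes at an unadjusted p below 0.05 was 5 without mouse m118, 2 without the CD hippocampus of mouse m138 or of mouse m242, and 7 without that of mouse m190. In the cortex the count of 1 became 0 without WT mouse m244 or CD mouse m190, 2 without WT mouse m240 and 3 without CD mouse m242. In the cerebellum it became 0 without WT mouse m162 or m240 or CD mouse m118 or m242, and 5 without WT mouse m244. Shares of all genes in these reduced fits are not given here, so the shifts are not read as particular to the listed genes.

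In the cortex, Cplx3 had 5.73, 6.44, 8.07 and 4.78 cpm in WT and 6.60, 8.09, 12.1 and 10.1 cpm in CD mice, on 12 to 81 counts, a change of 0.54 (95% interval, 0.01 to 1.07; FDR = 0.9997). The groups overlapped. In the cerebellum, Syn3 had 14.4, 10.8, 13.8 and 12.1 cpm in WT and 9.02, 10.2 and 9.87 cpm in CD mice, without overlap, a change of -0.40 (95% interval, -0.78 to -0.01; FDR = 0.981). Its changes in hippocampus and cortex were 0.09 and -0.03. Over all regions, Sv2a changed by 0.17 (95% interval, 0.01 to 0.33; FDR = 0.9996, limma voom), with 0.15, 0.16 and 0.19 in the 3 regions.

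Within a region, WT and CD libraries did not overlap for 2 of 42 genes in the hippocampus (Cplx2 and Syt3; 5.39% of all genes did not), 0 in the cortex (2.54% of all genes) and 2 in the cerebellum (Syn1 and Syn3; 5.25% of all genes), each lower in CD libraries. These shares are near those of all genes. For Syt3 and Syn1 the changes were -0.19 and -0.09, both with intervals that include 0. By role, the median change lay between -0.19 (complexins in the hippocampus) and 0.26 (Rab3 and its effector in the hippocampus). Of the other pathway genes, 0 of 40, 40 and 36 had an unadjusted p below 0.05 in hippocampus, cortex and cerebellum.

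**Figure D5:**
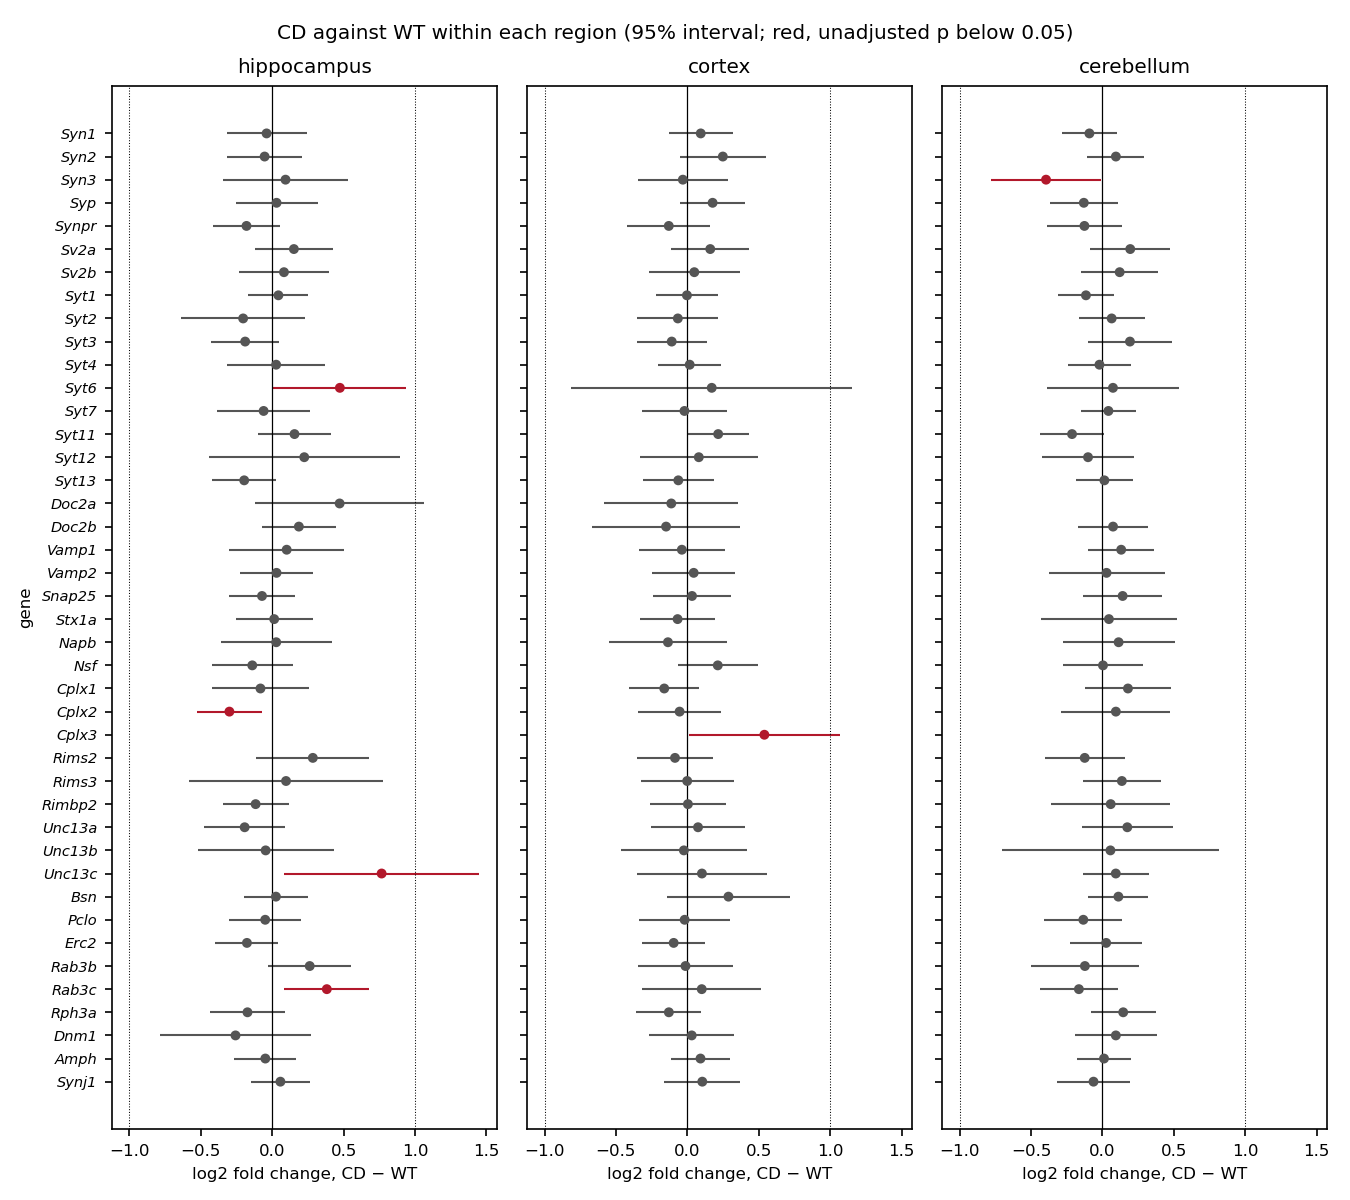
Each row is a gene in the order of the roles, and each panel a region, with the log2 fold change (CD minus WT) and its 95% interval; red marks an unadjusted p below 0.05, dotted lines a 2-fold change, and an empty row a gene that the filter left out in that region. Points lie between -0.40 and 0.77, and the widest intervals belong to low genes such as Syt6 in the cortex and Unc13c in the hippocampus.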

How the data were processed

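RNA of 22 brain samples was sequenced by CelSeq2. Reads were mapped by the authors with STAR (mm10) and counted per transcript end by ESAT, and these deposited counts were used as they stand; whether reads with the same UMI were collapsed is not given in the sources used here. Of 85964 transcripts, 69280 (81.4% of counts) were matched by identifier to GENCODE M21 (GRCm38.p6), and the transcript with the most counts stood for each gene.

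Counts were TMM-scaled and tested with edgeR 4.0.16 (quasi-likelihood; R 4.3.3), after the authors' filter (5 cpm in at least 2 libraries) and thresholds (FDR below 0.01, fold over 2 or under 0.5). Regions were fitted as 6 group means over 22 libraries, and genotype within each region. The average over regions used limma 3.58.1 (voom, mouse as block), and DESeq2 1.42.0 was an alternative. The scripts were tested on simulated data. Libraries of 1 mouse are paired by animal; their deviations correlated by -0.08 to 0.18 over 20 pairs (median, 0.05), 2 of them over 0.1. The libraries of a region are from different mice, so p-values reflect the spread between mice. The members and lists were chosen with earlier results of these data known. All listed genes were accounted for, and levels were given in full for those past the thresholds in a region comparison, those with an unadjusted p below 0.05 between genotypes and those with the largest genotype change of a region; of the other lists, the largest changes past the thresholds were named. Paralogs were compared as shares of their family's counts. Tables were handled with Python 3.11 and pandas 2.3.3. Some genes of the other lists are counted but not reported by name here.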

Additional observations from a re-analysis of the deposited data

Results flagged for a closer look

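Over 168 groups of 4 samples formed by the 42 genes, 7 had a sample that stood apart by Dixon's criterion, where chance gives about 1 in 20 groups, or 8.4. Vamp2 was at 5274 cpm in the WT cerebellum of mouse m162 and at 9063 to 9253 cpm in the other 3. Stx1a was at 1579 cpm in the CD cortex of mouse m242, with the others at 1190.3 to 1211 cpm, and at 30.2 cpm in the WT cerebellum of mouse m244, with the others at 15.4 to 17.3 cpm. Cplx1 was at 1783 cpm in the CD cortex of mouse m190, against 1421 to 1470.02 cpm. Cplx2 was at 1932 cpm in the WT cerebellum of mouse m240, against 3233 to 3459 cpm. Rims2 was at 66.5 cpm in the CD hippocampus of mouse m190, against 106 to 112 cpm. Bsn was at 1227 cpm in the CD cortex of mouse m242, against 559.5 to 647 cpm.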

How the results depend on the processing

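The counts of genes past the thresholds between regions stayed within 1.5 times of their value under every alternative run. In the order cortex higher and lower than hippocampus, cerebellum higher and lower than hippocampus, and cerebellum higher and lower than cortex, they were 5, 2, 8, 12, 5 and 10, and the same in the paired fit with the mouse as a replicate block. DESeq2's test and its size factors gave 5, 2, 7, 12, 5 and 10, and summed transcripts 4, 2, 7, 12, 5 and 9. Leaving out 1 library gave 5 to 6, 2 to 2, 7 to 8, 11 to 12, 5 to 5 and 9 to 10, and 0 to 0 between genotypes. Calls close to 2-fold were lost in some alternatives. Syt4 was lost with DESeq2 (0.996), summed transcripts (0.98) and CD libraries alone (0.98). Synj1 was lost with WT libraries alone (-0.97) and Sv2b with CD libraries alone (-0.9995). Both calls of Cplx3, at 2.09 and -2.62 not close to 2-fold but tied to the filter, were lost with summed transcripts. Syt6 had an FDR of 0.0138 against the cortex in CD libraries alone. Calls were also gained: Vamp1 and Unc13c from hippocampus to cortex in WT libraries alone, and Vamp1 also without the WT hippocampus of mouse m162 or the CD cortex of mouse m118 or m138. Unc13a passed from hippocampus to cerebellum in WT libraries alone (-1.01). In CD libraries alone, Syt11 was lower in the cerebellum than in the hippocampus (-1.12) and the cortex (-1.06), and Syn3 than in the cortex (-1.10). The causes were not tested. Between genotypes, the number of genes at an unadjusted p below 0.05 ranged from 2 to 7 in the hippocampus, 0 to 3 in the cortex, 0 to 5 in the cerebellum and 0 to 3 averaged over regions, where edgeR with no replicate block gave 3. Shares of all genes under these alternatives are not given here. Depth limited Doc2a in the cerebellum and Cplx3 outside the cortex.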

Other observations

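Pclo and Syn2 have transcripts with separate annotated 3′ ends, chosen here after their values were seen and given without a test. The ends of Pclo-202 and Pclo-201 lie 67.5 kb apart on chromosome 5 (14795993 and 14863459, GRCm38, plus strand). The far end held 28.04% to 35.3% of the counts of both in the hippocampus, 24.8% to 31.0% in the cortex and 49.7% to 53.8% in the cerebellum, whose libraries did not overlap with the others. The near end had medians of 125, 137 and 119 cpm and the far end of 60.6, 54.2 and 130 cpm in hippocampus, cortex and cerebellum. Another annotated gene lies between the ends. For Syn2, whose ends lie 5.45 kb apart on chromosome 6 (115276559 and 115282006, plus strand), the far end held 17.2% to 20.7%, 15.9% to 21.5% and 20.7% to 26.4% of the counts. The levels and changes given for Pclo and Syn2 in the earlier sections are those of the near end.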
